A study of Homo sapiens with 4 samples.

Results

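The 10 genes described here encode proteins that hold epithelial sheets together, form their filaments or keep up their gene program: the adhesion proteins CDH1 and EPCAM, the claudins CLDN4, CLDN6 and CLDN7, the keratins KRT8, KRT18 and KRT19, and the regulators ESRP1 and OVOL2. They were chosen by symbol as a list of epithelial adhesion and keratin genes, and each had 1 row among the 58229 genes of the table. RNA was sequenced from CD31+ cells taken at day 8 of the hematopoietic differentiation of H1, a human embryonic stem cell line, in 2 libraries without HAND1 overexpression (Control) and 2 with it (HAND1_OE). All libraries came from cells that had passed through activin A and BMP4, which induce mesoderm, and then VEGF and bFGF. HAND1 is a bHLH transcription factor of mesoderm. The vector and its promoter, the purity of the CD31+ cells and whether replicates came from separate cultures are not given in the sources used here, so p-values measure only the spread between these libraries. Values are FPKM, fragments scaled by transcript length and by library depth, which allows levels to be compared between genes.

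Epithelial cells bind one another through E-cadherin at adherens junctions, seal the space between them with claudins at tight junctions, and resist strain with keratin filaments built from a type I and a type II chain. In an epithelial-mesenchymal transition many of these genes are shut down, classically by SNAI1, ZEB1 and related repressors that bind E-box motifs before their starts. Pluripotent stem cells are themselves epithelial, whereas endothelial cells join through a different cadherin, CDH5. The comparison bears on whether the epithelial program of CD31+ cells differed when HAND1, a factor that the study places among mesenchymal genes, was kept high.

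The label of the cells was checked first. CDH5 was at 222 to 280 FPKM and PECAM1, which encodes CD31, at 92.0 to 160 FPKM, and all 15 genes of the endothelial list reached 1 FPKM in every library. Of those 15, 1 was called lower, the transcription factor SOX18, at 127 and 123 FPKM in Control against 51.3 and 48.3 FPKM (log2 fold change -1.31, limma adjusted p = 0.0121), which missed the threshold without Control replicate 1 (limma adjusted p = 0.0548). HAND1 was at 12.1 and 14.3 FPKM in Control, against 520 and 517 FPKM in HAND1_OE (log2 fold change 5.20, limma adjusted p = 0.00145). Of the 15 listed blood genes, 13 were tested and 12 were called lower in HAND1_OE, against 2.11% of all genes tested. In each Control library 13 of the 15 reached 1 FPKM, but 11 and 8 did in the HAND1_OE libraries. With 1 FPKM required in every library, 7 were called lower. PTPRC (CD45) stayed at or below 0.0227 FPKM in every library. In such bulk samples, fewer cells of a type and less RNA per cell cannot be told apart. The summed FPKM was 536284 to 606609 per library and 13989 to 14542 genes reached 1 FPKM.

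Epithelial genes were present at very unequal levels in the CD31+ cells, and none passed the test between groups. The keratins KRT8 and KRT18 were abundant, CLDN7 and KRT19 followed, CLDN6 and EPCAM were intermediate, and CLDN4, CDH1, ESRP1 and OVOL2 were low. Of the 10 genes, 9 had at least 1 FPKM in at least 2 libraries and were tested; OVOL2 was not. In limma, 0 of 9 were higher and 0 of 9 lower at an adjusted p under 0.05, where 4.16% of the 14622 genes tested were called, 2.04% as higher and 2.11% as lower. Only CLDN7 (1 of 9) had an unadjusted p under 0.05, and it was lower, where 17.4% of all genes tested had one. The median log2 fold change of the 9 was 0.05, against -0.08 for all genes tested. Groups did not overlap for 4 of the 9, KRT8 and KRT18 above and CLDN6 and CLDN7 below, where 46.3% of all genes tested had groups that did not overlap (16.2% with HAND1_OE above and 30.1% below). With 2 libraries per group an exact two-sided permutation test cannot go below p = 0.333, so single genes were judged in the fit across all genes alone.

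**Figure D1:**
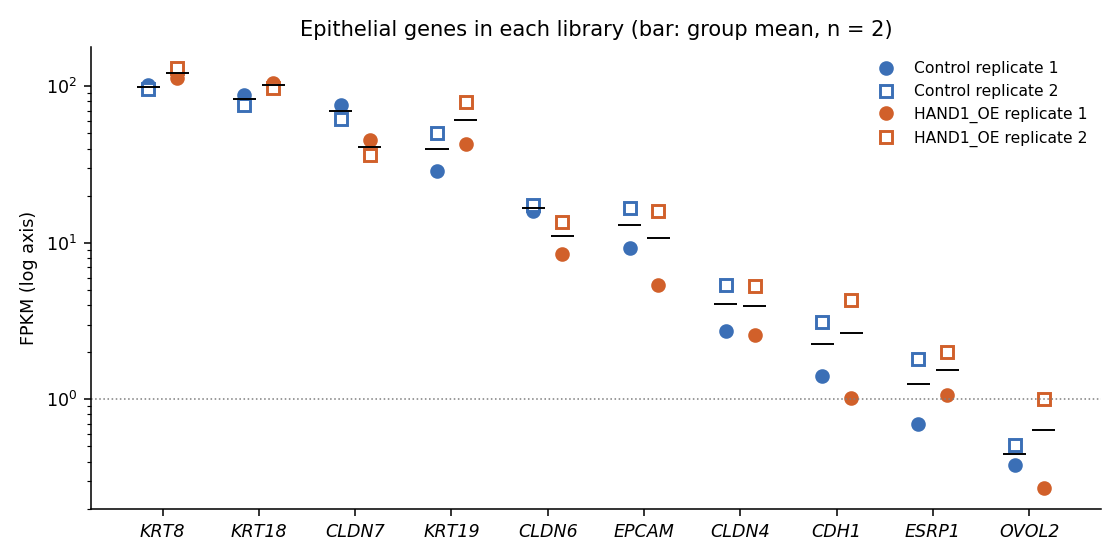
FPKM of each gene (log axis) in the 4 libraries, with Control in blue, HAND1_OE in orange, filled circles for replicate 1, open squares for replicate 2, black bars for group means (n = 2) and a dotted line at 1 FPKM. KRT8 and KRT18 sit near 100 FPKM and OVOL2 near or under 1 FPKM, and the open squares lie above the filled circles of the same colour for CDH1, EPCAM, CLDN4, ESRP1, KRT19, CLDN6 and OVOL2.

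CLDN7 came nearest to the threshold. It encodes a claudin of simple epithelia that also binds EPCAM, and lies at chr17:7259903-7263983 on the minus strand (GRCh38, ENSG00000181885.18). It was at 76.0 and 62.1 FPKM in Control, against 45.2 and 36.4 FPKM in HAND1_OE. Both HAND1_OE values lay below both Control values. The means were 69.1 ± 9.81 and 40.8 ± 6.21 FPKM (SD, n = 2), and the log2 fold change was -0.75 (standard error 0.184, 95% interval -1.20 to -0.29). The unadjusted limma p was 0.0076 and the adjusted p = 0.102, so CLDN7 did not pass over all genes tested. Fold changes were taken on the log2(FPKM + 1) scale, which makes the change of a low gene look smaller. Of its exon bases, 10.8% also belong to AC003688.1, a gene on the same strand that was listed at 0 in every library, and 1.52% to ELP5 on the other strand.

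The sequence before the starts of CLDN7 is shown because this gene had the smallest p of the 10 and because HAND1, SNAI1 and the ZEB factors all bind E-boxes, sites of the form CANNTG. The RefSeq table (GRCh38.p14) gives 2 starts for CLDN7. The 250 bases before the outer start (chr17:7263214-7263463, minus strand) hold 1 such site, in capitals:
CLDN7 outer start: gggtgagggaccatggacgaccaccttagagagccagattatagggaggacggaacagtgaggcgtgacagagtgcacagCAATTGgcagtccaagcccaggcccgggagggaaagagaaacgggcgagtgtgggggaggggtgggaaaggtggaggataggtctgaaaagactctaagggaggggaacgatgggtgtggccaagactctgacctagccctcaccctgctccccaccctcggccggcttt

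The 250 bases before the inner start (chr17:7262479-7262728, minus strand), which lie in the first exon of a longer CLDN7 transcript, hold 4 E-boxes, and all 4 have the letters CAGGTG or their reverse complement CACCTG. They are shown in capitals in short windows at chr17:7262641-7262658, chr17:7262602-7262619 and chr17:7262479-7262504:
CLDN7 inner start, first site at -174: cctcctCACCTGggcaag
CLDN7 inner start, second site at -135: ccggttCAGGTGagtgtc
CLDN7 inner start, a pair of sites from -20 to -4: tatactCAGGTGcgcccCACCTGtcc

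Of 35116 RefSeq promoters cut to the same 250 bases, 61.8% hold CANNTG on either strand, 17.5% hold CAGGTG or CACCTG, which is also a CANNTG match, and 0.464% hold the latter at least 3 times. A match is a description of the letters and was not tested as a binding site. The same windows of CLDN4 and CLDN6, which also lie wholly in annotated untranslated exon sequence, hold no CANNTG. That of KRT8 holds 2, neither of them CAGGTG.

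CLDN6, a claudin of embryonic epithelia and pluripotent cells, lies on chromosome 16 (3014712 to 3020071). It was at 15.9 and 17.5 FPKM in Control, against 8.53 and 13.6 FPKM in HAND1_OE. Both HAND1_OE libraries were again the lower ones, but they differed from each other by 1.60 times. The log2 fold change was -0.58 (standard error 0.239, 95% interval -1.18 to 0.01, adjusted p = 0.297). CLDN4, on chromosome 7 (73799542 to 73832693), which tightens the barrier of many epithelia, was at 2.75 and 5.37 FPKM in Control, against 2.59 and 5.32 FPKM in HAND1_OE. Each group held a low and a high library with almost the same values, and the log2 fold change was -0.04 (95% interval -0.97 to 0.90, adjusted p = 0.980). Its sign turned with quantile normalization (0.075) and with median-ratio scaling (0.027), and without Control replicate 2 (0.35) or HAND1_OE replicate 1 (0.37). CLDN7 made up 65.7% to 80.3% of the summed FPKM of the 3 claudins, and that sum was 94.6 and 85.0 FPKM in Control and 56.3 and 55.4 FPKM in HAND1_OE.

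The 3 keratins had the opposite sign. KRT8, the type II chain of simple epithelia (chromosome 12, 52897187 to 52949954), was at 102 and 96.0 FPKM in Control, against 113 and 130 FPKM in HAND1_OE. KRT18, the type I chain that pairs with it (chromosome 12, 52948871 to 52952901), was at 88.6 and 76.3 FPKM in Control, against 105 and 97.8 FPKM in HAND1_OE. For both genes each HAND1_OE library lay above each Control library, and the differences were small. The log2 fold changes were 0.29 for KRT8 (standard error 0.153, 95% interval -0.09 to 0.67, adjusted p = 0.425) and 0.30 for KRT18 (standard error 0.153, 95% interval -0.09 to 0.68, adjusted p = 0.414). By mean level KRT18 stood at percentile 93.8 of the genes tested, and KRT8 above it.

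KRT19, a type I keratin of ducts and other simple epithelia (chromosome 17, 41523617 to 41528308), had the largest fold change of the 10 with a positive sign. It was at 28.9 and 50.3 FPKM in Control, against 42.9 and 79.1 FPKM in HAND1_OE. The groups overlapped, since Control replicate 2 exceeded HAND1_OE replicate 1. The log2 fold change was 0.60 (standard error 0.374, 95% interval -0.33 to 1.53, adjusted p = 0.510).

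Levels of the type II chain were then set against those of the type I members, KRT18 and KRT19. Type II and type I chains enter the filament in equal numbers. KRT10, a type I keratin outside the members whose level is given below, was not counted in this ratio. KRT8 divided by the sum of KRT18 and KRT19 was 0.867 and 0.758 in Control and 0.763 and 0.736 in HAND1_OE, so the groups overlapped by a narrow margin. With processed pseudogenes added to each keratin the ratio was 0.908 and 0.790 in Control and 0.788 and 0.758 in HAND1_OE. There the groups no longer overlapped, again by a narrow margin (0.790 against 0.788). KRT19 took 13.2% and 22.6% of the summed keratin FPKM in Control and 16.5% and 25.8% in HAND1_OE, and KRT18 took 40.4% and 34.3%, then 40.2% and 31.8%. In both groups the library with the larger share of KRT19 had the smaller share of KRT18. The summed FPKM of the 3 keratins was 219 and 223 in Control and 260 and 307 in HAND1_OE.

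**Figure D2:**
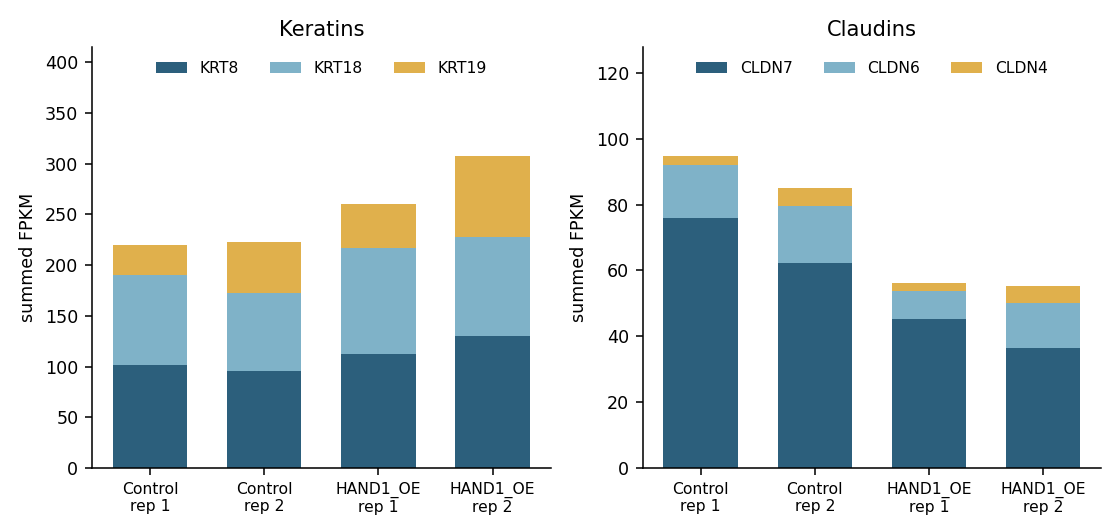
Summed FPKM of the keratins KRT8, KRT18 and KRT19 (left) and of the claudins CLDN7, CLDN6 and CLDN4 (right) in each library, as bars that start at 0. The keratin bars reach 260 and 307 FPKM in HAND1_OE against 219 and 223 FPKM in Control, and the claudin bars 56.3 and 55.4 FPKM against 94.6 and 85.0 FPKM.

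Other rows of the table could hold reads of these keratins. KRT8 and KRT18 lie on opposite strands and share 525 exon bases, which is 7.63% of the exon bases of KRT8 and 16.3% of those of KRT18, and whether strand was used in counting is not given in the sources used here. The table also has 50 processed pseudogenes of KRT8, which summed to 4.74 to 6.24 FPKM per library, led by KRT8P12 at 2.18 to 3.51 FPKM. The 67 pseudogenes of KRT18 summed to 1.41 to 2.00 FPKM and the 5 of KRT19 to at most 0.116 FPKM. With pseudogenes added to their genes, none of the 3 keratins passed.

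CDH1 encodes E-cadherin (chromosome 16, 68737225 to 68835548). It was at 1.41 and 3.13 FPKM in Control, against 1.01 and 4.29 FPKM in HAND1_OE. The HAND1_OE libraries enclosed both Control values, and the log2 fold change was 0.05 (standard error 0.511, 95% interval -1.22 to 1.32, adjusted p = 0.980). The interval covers more than a halving and more than a doubling on this scale, so a moderate difference in CDH1 was not detectable. Leaving out Control replicate 1 (-0.34) or HAND1_OE replicate 2 (-0.65) turned the sign. The endothelial cadherin CDH5, at 261 and 222 FPKM in Control and 257 and 280 FPKM in HAND1_OE, was the most abundant gene of the adherens junction and desmosome list and did not pass either (log2 fold change 0.16, adjusted p = 0.727).

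EPCAM, a homophilic adhesion protein of epithelia and stem cells (chromosome 2, 47345158 to 47387601), was at 9.33 and 16.8 FPKM in Control, against 5.35 and 16.0 FPKM in HAND1_OE. Replicate 2 of each group was close to 16 FPKM, and the replicate 1 libraries were lower. The log2 fold change was -0.39 (standard error 0.506, 95% interval -1.64 to 0.87, adjusted p = 0.789). Leaving out Control replicate 2 (0.007) or HAND1_OE replicate 1 (0.32) turned its sign.

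The regulators were low. ESRP1, an RNA-binding protein that sets the epithelial pattern of splicing (chromosome 8, 94641074 to 94707466), was at 0.695 and 1.80 FPKM in Control, against 1.06 and 2.00 FPKM in HAND1_OE (log2 fold change 0.19, 95% interval -0.64 to 1.02, adjusted p = 0.849), and its sign turned without Control replicate 1 (-0.17) or HAND1_OE replicate 2 (-0.08). OVOL2, a zinc finger factor that represses mesenchymal genes in epithelia (chromosome 20, 17956979 to 18059188), was at 0.380 and 0.507 FPKM in Control, against 0.270 and 1.001 FPKM in HAND1_OE. For both genes replicate 2 had the higher value in either group, and the groups overlapped. OVOL2 did not reach 1 FPKM in a second library, so it has values and no test. Reads of the more abundant SNX5 (41.4 to 58.6 FPKM) share 2.71% of its exon bases.

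**Figure D3:**
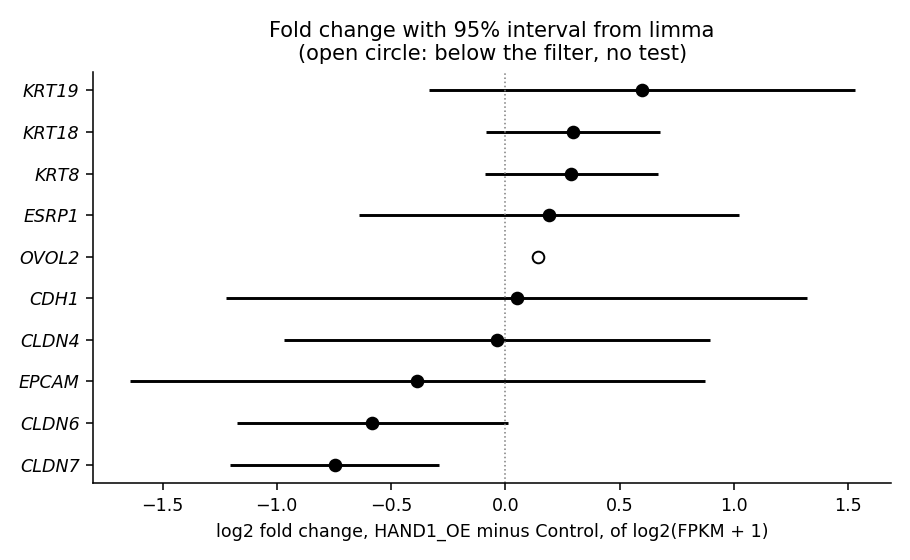
Log2 fold change of each gene, as HAND1_OE minus Control on the log2(FPKM + 1) scale, with its 95% interval from limma (n = 2 per group). The open circle is OVOL2, which was not tested. CLDN7 has the only interval that leaves out 0, from -1.20 to -0.29, before adjustment for the number of genes tested.

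The spread within groups had a shape of its own. In 6 of the 9 tested genes, CDH1, EPCAM, ESRP1, CLDN4, CLDN6 and KRT19, replicate 2 was above replicate 1 in both groups, and in CLDN7 and KRT18 it was below in both. Of all genes tested, 33.3% had replicate 2 above replicate 1 in both groups. CDH1 was 2.22 times as high in Control replicate 2 as in Control replicate 1 and 4.24 times in the HAND1_OE pair. EPCAM differed by 1.80 and 2.99 times and KRT19 by 1.74 and 1.85 times in the same pairs. For these genes the difference between libraries of a group exceeded that between groups. KRT8, KRT18 and CLDN7, the 3 with the highest mean level, differed by less than these between libraries of a group.

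Markers of endoderm, an epithelium that can arise beside mesoderm, moved between the same libraries. The 15 listed genes summed to 332 and 573 FPKM in Control and 360 and 1176 FPKM in HAND1_OE, and 10 to 13 of them reached 1 FPKM. APOA2, an apolipoprotein and the most abundant of them, was at 118 and 186 FPKM in Control, against 131 and 472 FPKM in HAND1_OE. Of the 12 tested, 11 were higher in replicate 2 of both groups. Between groups 0 of 12 passed in limma, and 0 of 12 had an unadjusted p under 0.05, against 17.4% of all genes tested. FOXA2, a defining endoderm factor, was at 1.12 and 3.13 FPKM in Control, against 0.866 and 3.39 FPKM in HAND1_OE. The order of the 4 libraries by KRT19 or by ESRP1 is the order by the summed endoderm markers. None of the other tested epithelial genes, CDH1, EPCAM and the claudins among them, has that order. By APOA2 the order is also that of the sum, whereas by FOXA2 it is that of CDH1. The part of endoderm cells in the values of the epithelial genes was not tested.

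**Figure D4:**
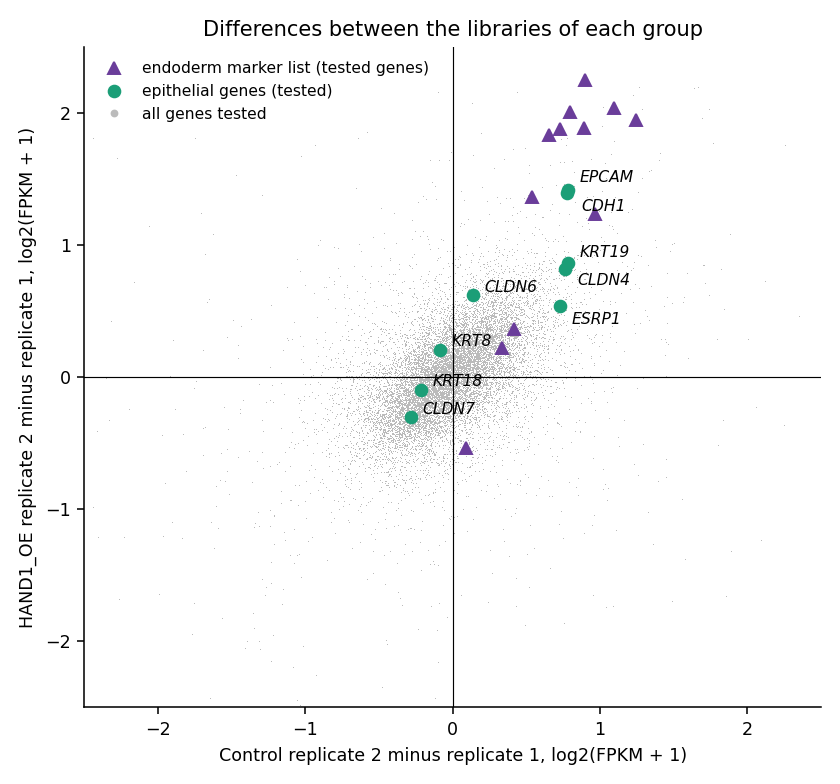
Replicate 2 minus replicate 1 on the log2(FPKM + 1) scale in Control (horizontal) and HAND1_OE (vertical) for the 9 tested epithelial genes (green circles), the 12 tested endoderm markers (purple triangles) and all genes tested (grey), of which 51 lie beyond the axes. CDH1, EPCAM, KRT19, CLDN4 and ESRP1 lie at the upper right with most endoderm markers, and KRT8, KRT18 and CLDN7 near the centre.

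Pluripotent stem cells also carry CDH1, EPCAM and CLDN6, so their markers were examined. The 15 listed genes summed to 146 and 205 FPKM in Control and 132 and 191 FPKM in HAND1_OE. The libraries have this same order by EPCAM or by CLDN4, and another order by each of the other tested epithelial genes. In limma 0 of the 12 tested passed, with 5 at an unadjusted p under 0.05, against 17.4% of all genes tested. Both HAND1_OE libraries were below both Control libraries in 6 of the 12 and above in 1, against 30.1% and 16.2% of all genes tested. POU5F1 was at 4.34 and 4.11 FPKM in Control, against 1.25 and 3.59 FPKM in HAND1_OE. The other core factors were near 0, with NANOG at most at 0.379 FPKM and SOX2 at most at 0.0622 FPKM. Of the 12, 9 were higher in replicate 2 of both groups, including PODXL, the most abundant, at 22.1 and 59.2 FPKM in Control and 37.3 and 74.6 FPKM in HAND1_OE. The part of such cells in the values of the epithelial genes was not tested.

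Other epithelia were represented by fewer of their markers. Of the trophoblast and amnion list, 7 of 15 were tested and 2 were called higher in HAND1_OE, against 2.04% of all genes tested. The 2 called were EPAS1 (log2 fold change 1.37, limma adjusted p = 0.022) and TFAP2A, which is also on the list of epithelial regulators below. The median log2 fold change of the 7 was -0.04. Both HAND1_OE libraries were above both Control libraries in 2 and below in 2, against 16.2% and 30.1% of all genes tested. EPAS1 did not pass without Control replicate 1 (adjusted p = 0.0707). KRT7 did not exceed 0.507 FPKM, nor CGA 0.341 FPKM. The most abundant gene of that list was GATA2 (74.5 to 117 FPKM), which endothelial and blood cells also use. Of the mesothelium and epicardium list, 6 of 11 were tested, 2 were called higher and 1 lower, against 2.04% and 2.11% of all genes tested. WT1 rose from 0.746 and 0.472 FPKM to 10.1 and 7.14 FPKM (2.57, limma adjusted p = 0.0085). Being under 1 FPKM in both Control libraries, WT1 met the filter through HAND1_OE alone, and fits without a library kept that filter. LRRN4 rose (1.37, limma adjusted p = 0.0258), while SFRP5 fell from 33.2 and 43.6 FPKM to 1.84 and 4.49 FPKM (-3.30, limma adjusted p = 0.0108). WT1 and SFRP5 passed whichever library was left out, LRRN4 without HAND1_OE replicate 2 alone. MSLN, a defining mesothelial gene, did not exceed 0.404 FPKM.

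The known repressors of CDH1 were tested next to it. Of 11 listed genes, 9 were tested and 0 passed in limma, with 3 at an unadjusted p under 0.05, against 17.4% of all genes tested. SNAI1 was at 10.4 and 12.3 FPKM in Control, against 20.7 and 20.3 FPKM in HAND1_OE (log2 fold change 0.81, adjusted p = 0.0568). Quantile normalization (adjusted p = 0.0456) and median-ratio scaling (adjusted p = 0.0477) brought it under the threshold. Fits without the variance trend (adjusted p = 0.0703) or with the smaller pseudocount (adjusted p = 0.0602) left it above. So did requiring 1 FPKM in every library (adjusted p = 0.0547) or testing every gene above 0 (adjusted p = 0.181). With each library left out in turn, the log2 fold change of SNAI1 was 0.70 to 0.92. The groups of SNAI1 did not overlap, with HAND1_OE above, as in 16.2% of all genes tested. Those of CDH1 overlapped, and a link between these genes was not tested. ZEB2 was lower in both HAND1_OE libraries, at 27.48 and 29.04 FPKM against 15.5 and 20.2 FPKM (-0.65, adjusted p = 0.140). TCF3, a class I bHLH factor and the most abundant of the list, was at 151 and 143 FPKM against 114 and 97.0 FPKM (-0.48, adjusted p = 0.198). SNAI2 (0.06), ZEB1 (0.25), TWIST1 (-0.06), KLF8 (-0.56), FOXC2 (-0.30) and SNAI3 (-0.22) had adjusted p-values from 0.497 to 0.952, and GSC was listed at 0 in every library.

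Among other tight junction genes, 16 of 23 were tested. In HAND1_OE 1 was higher and 1 was lower, against 2.04% and 2.11% of all genes tested. CLDN5, the claudin of endothelium, fell from 85.0 and 66.1 FPKM to 15.2 and 14.3 FPKM (log2 fold change -2.27 ± 0.175 (SE), adjusted p = 0.007). CGN, which encodes cingulin of the junctional plaque, rose from 11.5 and 8.85 FPKM to 20.5 and 23.4 FPKM (1.05, standard error 0.184, adjusted p = 0.0431). CLDN5 passed whichever library was left out, whereas CGN missed the threshold in each of those 4 fits (adjusted p = 0.0547 to 0.181). F11R (JAM-A) was the most abundant at 91.6 to 104 FPKM. CLDN10 and the chromosome 7 neighbour of CLDN4, CLDN3, were looked up after their values were seen. CLDN10 was at 13.7 and 11.2 FPKM against 7.002 and 6.270 FPKM (-0.82, adjusted p = 0.0745), and CLDN3 was at 0.807 to 2.71 FPKM with replicate 2 the higher in both groups.

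The adherens junction and desmosome list had 19 of 23 genes tested and 0 passed in limma. An unadjusted p under 0.05 was found for 2 of the 19, against 17.4% of all genes tested. In 8 of the 19 both HAND1_OE libraries were above both Control libraries, against 16.2% of all genes tested, and in 1 both were below, against 30.1%. The pair with an unadjusted p under 0.05, named after their values were seen, encode desmosomal proteins. DSG2 was at 15.2 and 16.6 FPKM in Control, against 23.0 and 27.6 FPKM in HAND1_OE (0.63, adjusted p = 0.117). PERP was at 16.6 and 18.8 FPKM in Control, against 28.9 and 27.2 FPKM in HAND1_OE (0.64, adjusted p = 0.0915).

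Of the epithelial polarity list, 15 of 17 were tested and 1 was lower, against 2.11% of all genes tested. PRKCZ, an atypical protein kinase C of the apical complex, fell from 11.41 and 10.95 FPKM to 4.86 and 5.26 FPKM (log2 fold change -1.01 ± 0.158 (SE), adjusted p = 0.0335), and missed the threshold whichever library was left out (adjusted p = 0.0568 to 0.138). STK11, the most abundant, was at 33.2 to 52.7 FPKM and did not pass. Of 15 other epithelial regulators 6 were tested and 1 was higher, against 2.04% of all genes tested. It was TFAP2A, which rose from 3.36 and 3.18 FPKM to 9.66 and 7.25 FPKM (1.13, limma adjusted p = 0.0419). Without HAND1_OE replicate 2 TFAP2A passed (adjusted p = 0.034), and without each of the other libraries it did not. KLF4 was the most abundant of them at 15.4 to 24.4 FPKM, and GRHL2, GRHL1 and OVOL1, which act with OVOL2 and ESRP1 in epithelia, did not exceed 0.723 FPKM.

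The other keratins were nearly absent. Of 15 listed, KRT10 alone reached 1 FPKM, at 19.2 to 29.6 FPKM, and did not pass (log2 fold change 0.10, adjusted p = 0.889). Of the list of epithelial surface proteins and proteases, 11 of 17 were tested and 0 passed in limma. An unadjusted p under 0.05 was found for 2 of the 11, against 17.4% of all genes tested. CD24 was the most abundant at 278 to 478 FPKM. These lists were described by counts, since no test of a list was run.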

How the data were processed

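The 4 libraries (2 Control, 2 HAND1_OE) were built with an Illumina TruSeq kit. The authors deposited a table with 1 value for each gene and library, taken here to be FPKM because the values are not whole and their totals differ. A value of 0 may be a failed estimate and is given as listed at 0. The submitters' processing notes name BWA, Bowtie and RSEM, without versions, and hg19. Coordinates of 55583 of 58229 genes equal those of GENCODE release 29 on GRCh38, so GRCh38 is used, with starts counted from 1. Of 58365 rows, 45 for Y copies of pseudoautosomal genes and 91 with a repeated ID (the row with the lower mean) were left out. Counts behind a value are unknown. Low values of single-exon genes gave depths of 0.984 to 1.19 relative to Control replicate 1.

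Groups came from sample titles. The test was limma 3.58.1 in R 4.3.3, two-sided and with its variance trend, on log2(FPKM + 1) of the 14622 genes that reached 1 FPKM in 2 or more libraries. Benjamini-Hochberg adjustment covered all of them. The code was tested on simulated data. Members, lists and tests were chosen with earlier results of these data known. Named genes were the members, HAND1, PECAM1 and CDH5 and, from each of the other 14 lists, up to 3 called genes with the largest change and the most abundant gene; the repressor and pluripotency lists could be named whole. Names beyond this rule were picked with their values in view: the overlapping SNX5, ELP5 and AC003688.1, and PTPRC, FOXA2, KRT7, CGA, MSLN, GRHL1, GRHL2 and OVOL1 as defining markers, and CLDN3, CLDN10, DSG2 and PERP. Alternatives were a pseudocount of 0.1, 2 other filters, 2 scalings, no trend, a block for the replicate number, leaving out each library, and keratin pseudogenes summed. Promoters came from RefSeq (GRCh38.p14), and member entries on chromosome 8, where ESRP1 lies, were left out. Entries were used for CLDN4, CLDN6, CLDN7 and KRT8.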

Additional observations from a re-analysis of the deposited data

How the results depend on the processing

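With every gene above 0 tested, limma called 0 genes higher and 0 genes lower, with 3810 at an unadjusted p under 0.05, and HAND1 kept its log2 fold change of 5.20 at an adjusted p = 0.153; OVOL2, tested there, had an adjusted p = 0.852. CLDN4 turned to 0.075 with quantile normalization and to 0.027 with median-ratio scaling. With pseudogenes summed the mean keratin ratio was 0.849 in Control and 0.773 in HAND1_OE, from 0.813 and 0.750. The groups then no longer overlapped, by a narrow margin (0.790 against 0.788). Same-numbered libraries share only a number in the labels; their deviations from the group means correlated at 0.38 across the 14622 genes. With the replicate number as a block, 597 genes were called higher and 712 lower, and of the 9 members 1 was called higher, KRT19 (0.60, limma adjusted p = 0.0308), and 1 lower, CLDN7 (-0.75, limma adjusted p = 0.0193). Of the CDH1 repressor list, 1 gene was called higher with this block, SNAI1 (limma adjusted p = 0.0325), and 2 were called lower. No member passed in any of the other alternatives.

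With each library left out, 134 to 266 genes were higher and 137 to 309 lower, the fewest without a Control library (141 and 144 without Control replicate 1, 134 and 137 without Control replicate 2). The members whose groups did not overlap numbered 6 to 7 of 9 in these smaller groups, where 71.7% to 74.3% of all genes tested did not overlap, and their median fold change ranged from -0.45 (without HAND1_OE replicate 2) to 0.37. CDH1 ranged from -0.65 to 0.75, negative without Control replicate 1 (-0.34) or HAND1_OE replicate 2 (-0.65), and ESRP1 from -0.17 to 0.55, negative without the same libraries (-0.17 and -0.08). EPCAM ranged from -1.09 to 0.32 and CLDN4 from -0.45 to 0.37, both positive without Control replicate 2 (0.007 and 0.35) or HAND1_OE replicate 1 (0.32 and 0.37). CLDN7 stayed between -0.90 and -0.59, CLDN6 between -0.89 and -0.27, KRT8 between 0.19 and 0.39, KRT18 between 0.19 and 0.40 and KRT19 between 0.16 and 1.03.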

Other observations

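Keratins are one class of intermediate filament. Of 13 listed genes of other classes, 7 were tested and 3 were called higher in HAND1_OE in limma, against 2.04% of all genes tested. SYNM, which encodes synemin, rose from 0.683 and 1.62 FPKM to 8.93 and 6.45 FPKM (log2 fold change 2.03 ± 0.286 (SE), adjusted p = 0.0258). LMNA, which encodes the A-type lamins of the nuclear envelope, rose from 57.9 and 64.5 FPKM to 168 and 131 FPKM (1.27 ± 0.178, adjusted p = 0.0257), and NES, which encodes nestin, from 21.7 and 23.8 FPKM to 57.1 and 47.8 FPKM (1.16 ± 0.160, adjusted p = 0.0248). VIM, the most abundant filament gene, was at 1480 and 1377 FPKM in Control, against 1944 and 1852 FPKM in HAND1_OE (0.41, adjusted p = 0.347), so each keratin member and VIM had a positive fold change that did not pass. SYNM passed whichever library was left out, LMNA without either HAND1_OE library but not without a Control library (adjusted p up to 0.0866), and NES without HAND1_OE replicate 2 alone. Groups did not overlap for 6 of the 7 genes, 4 with HAND1_OE above and 2 with it below, where 46.3% of all genes tested did not overlap (16.2% above and 30.1% below).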
